A study of Mus musculus with 6 samples.

Results

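The carnitine shuttle moves long-chain fatty acids into mitochondria for oxidation, and 8 of its genes were followed in interscapular brown adipose tissue (iBAT) of obese and control mice. They are *Cpt1a*, *Cpt1b*, *Cpt1c*, *Cpt2*, *Crat*, *Crot*, *Slc25a20*, and *Slc22a5*. Their probes were found by matching the RefSeq accession of each array probe to these symbols. This gave 12 of the 39429 probes and 8 of the 20659 gene symbols on the array. *Cpt1a*, *Cpt1b*, *Cpt1c*, and *Cpt2* had a pair of probes each, called a and b here, with a the probe of higher mean signal. Of the 12 probes, 9 were detected, that is, well above background, on all 6 arrays. A further 2, *Cpt1a*-b and *Crat*, were detected on 3 and 4 arrays, respectively. *Cpt1c*-b was not well above background on any array and was not tested, which left 11 probes and all 8 genes.

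Control iBAT (3 mice by the labels) and *ob/ob* iBAT (3 mice) were compared, with RNA hybridized to 6 single-dye (Cy3) Agilent mouse arrays, 1 per sample. All mice were male, 16 weeks old by their labels, and on the C57BL/6 background. *ob/ob* mice lack functional leptin in every tissue and become obese and hyperglycemic, and no tissue other than iBAT was profiled here. The controls are described only by that word, and pooling of animals is not mentioned for any sample.

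A long-chain acyl-CoA cannot cross the inner mitochondrial membrane. CPT1 on the outer membrane exchanges the CoA for carnitine, the translocase encoded by *Slc25a20* carries the acylcarnitine inward, and CPT2 on the inner membrane restores the acyl-CoA. *Cpt1a* is the liver isoform, *Cpt1b* the isoform of muscle and brown fat, and *Cpt1c* a mainly neuronal form with little acyltransferase activity. *Crat* and *Crot* encode the carnitine acyltransferases for short acyl groups and for the medium-chain products of peroxisomal oxidation, and *Slc22a5* encodes OCTN2, which takes carnitine up into the cell. Brown fat burns fatty acids to make heat, and this entry step is inhibited by malonyl-CoA.

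The arrays did not sort by genotype. Over the tested probes, Spearman correlations between arrays of a group were 0.488 to 0.967, and those between groups 0.417 to 0.944. Control 1 and control 2 were alike (0.964), as were *ob/ob* 1 and *ob/ob* 2 (0.967). The array labelled control 3, however, lay nearer to *ob/ob* 1 (0.915) and *ob/ob* 2 (0.944) than to control 1 (0.642) or control 2 (0.730). The array labelled *ob/ob* 3 lay nearer to control 1 (0.858) than to *ob/ob* 1 (0.573) or *ob/ob* 2 (0.488). An exchange of these labels and a difference between the tissues taken cannot be told apart from the files, and every difference between the groups carries this doubt. The probes of the shuttle genes, and the called genes and medians of the lists around them, are therefore also given without both arrays. The *Lep* gene is mutated in *ob/ob* mice, where its transcript is still made. Its log2 signals were at most 5.74 in the controls (lowest 4.57) and at least 5.83 in *ob/ob* iBAT (highest 9.33). They were 5.30 on control 3 and 9.33 on *ob/ob* 3, each within its labelled group. Brown adipocyte markers such as *Ucp1*, *Cidea*, and *Cox8b* were detected on all 6 arrays. The samples are whole tissue, where fewer cells of a type and less RNA per cell cannot be told apart.

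Promoters are shown here for 3 of the genes, because *Cpt2*, by its brighter probe, and *Slc22a5* were high on the same 3 arrays, and *Slc25a20* was not. The RefSeq promoter table (GRCm38.p6) held 6 of the 8 genes, without *Cpt1b* and *Crat*. The sequences are the 250 bases before the transcription start, read 5′ to 3′ on the gene's strand. Capitals mark the GC box GGGCGG or its reverse complement CCGCCC. The *Cpt2* stretch lies at chr4:107923590-107923839 (minus strand), that of *Slc22a5* at chr11:53891704-53891953 (minus strand), and that of *Slc25a20* at chr9:108661886-108662135 (plus strand).
Cpt2: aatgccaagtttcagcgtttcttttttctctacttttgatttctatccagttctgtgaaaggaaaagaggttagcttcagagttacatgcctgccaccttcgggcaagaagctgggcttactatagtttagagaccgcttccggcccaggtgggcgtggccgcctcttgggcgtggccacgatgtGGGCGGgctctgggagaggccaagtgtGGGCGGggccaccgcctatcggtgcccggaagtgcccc
Slc22a5: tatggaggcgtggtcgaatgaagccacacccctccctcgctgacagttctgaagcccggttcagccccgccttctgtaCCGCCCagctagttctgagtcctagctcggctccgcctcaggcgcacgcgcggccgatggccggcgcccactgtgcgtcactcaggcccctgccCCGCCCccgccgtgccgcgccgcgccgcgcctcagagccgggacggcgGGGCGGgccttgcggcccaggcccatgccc
Slc25a20: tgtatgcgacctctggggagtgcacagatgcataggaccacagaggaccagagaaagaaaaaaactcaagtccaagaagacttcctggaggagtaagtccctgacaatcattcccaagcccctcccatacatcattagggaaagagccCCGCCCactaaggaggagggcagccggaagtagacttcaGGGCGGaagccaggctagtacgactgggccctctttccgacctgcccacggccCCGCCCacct
The GC box, searched on both strands, occurred in all 6 promoters, with 2 matches in *Cpt2* and 3 each in *Slc22a5* and *Slc25a20*. Of all 32851 promoters of this length, 32.7% held it. The nuclear receptor hexamer AGGTCA occurred in *Cpt1a* and *Cpt1c*, against 14.0% of all promoters. The complete PPAR element, a direct repeat of this hexamer with a spacer of 1 base, was in none of the 6 stretches and in 0.0335% of all promoters. Only exact matches within these 250 bases were searched, so inexact elements and elements elsewhere in the genes were not looked for. CCAAT was present in *Cpt1a*, *Cpt1c*, and *Crot* (33.8% of all promoters), and TATAAA in none (12.4%). The E-box CACGTG (6.02% of all promoters) and the cAMP element core TGACGT (6.47%) were also in none. The GC content of these stretches was 44% in *Cpt1c*, 56.8% in *Cpt2* and *Slc25a20*, 59.6% in *Cpt1a*, 69.6% in *Crot*, and 73.6% in *Slc22a5*, beside a median of 52.4% over all promoters.

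Of the 11 tested probes, 1 had a lower signal in *ob/ob* mice, with an unadjusted limma p under 0.05 (1.52% of all 35448 probes were), and 0 were higher (1.99% of all probes). That probe was *Cpt1b*-a, the muscle and brown fat isoform of CPT1. It was also the 1 probe whose groups did not overlap with *ob/ob* lower, against 4.19% of all probes. In the other direction, 0 of the 11 were without overlap, against 3.74% of all probes. No member probe passed a Benjamini-Hochberg adjusted p under 0.05, and neither did any other probe on the array (0% called, lowest limma adjusted p 0.154). All 11 adjusted p values rounded to 1. The log2 fold change, *ob/ob* minus control, was negative for 10 of the 11 probes and for 8 of 8 genes by their brighter probe. Over all genes it was negative in 57.2%. The median log2 fold change of the 8 genes was −0.62, beside −0.086 over all 19011 genes tested.

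**Figure D1:**
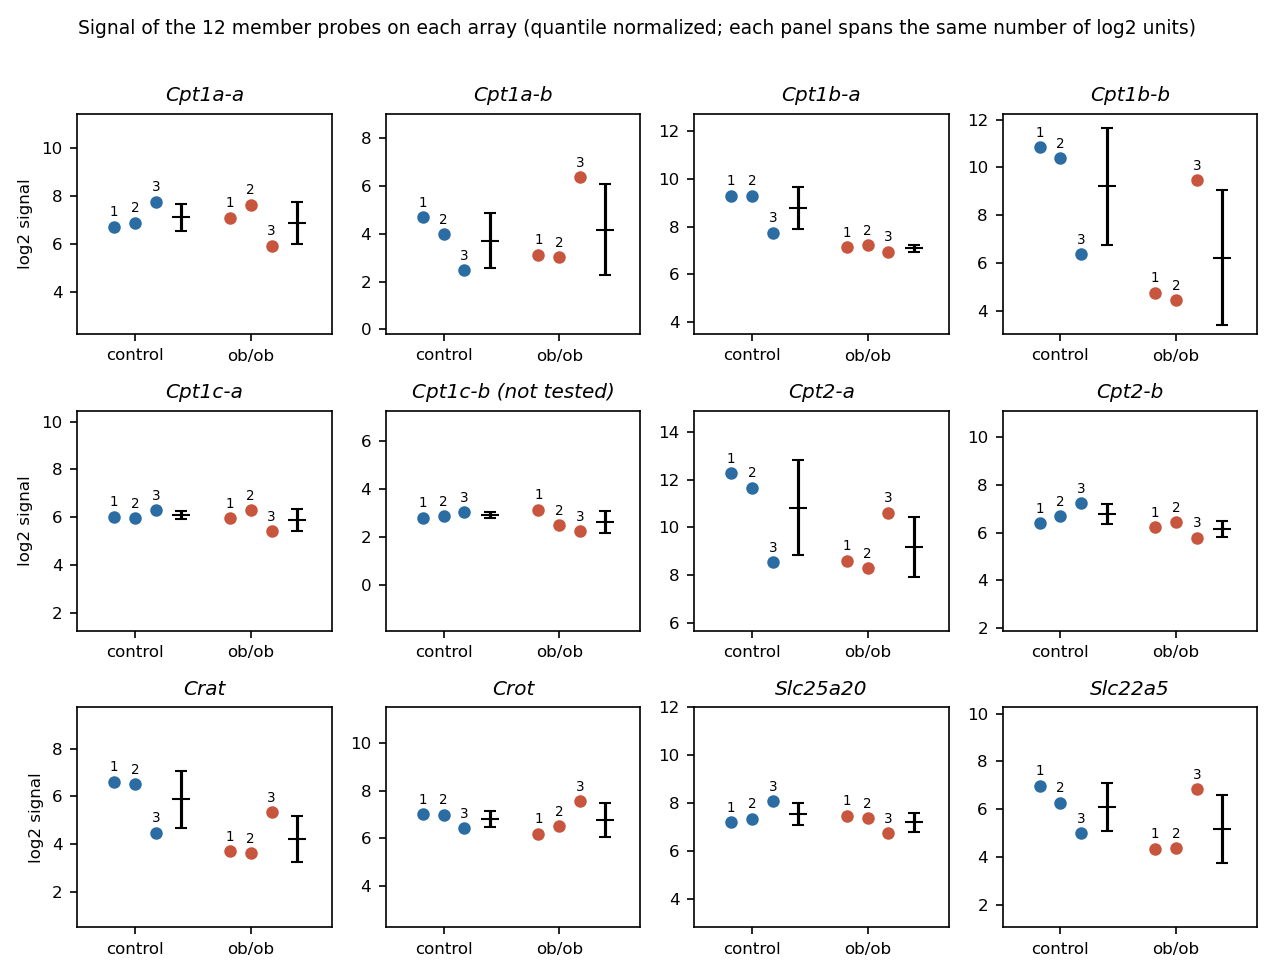
Quantile-normalized log2 signal (y axis) of the 12 probes on each of the 3 control (blue) and 3 *ob/ob* (red) arrays, numbered by replicate, with the mean ± SD of each group beside the points. All 3 *Cpt1b*-a points of the *ob/ob* group lie below the lowest control, whereas in *Cpt1b*-b, *Cpt2*-a, *Crat*, and *Slc22a5* control 3 lies near *ob/ob* 1 and *ob/ob* 2, and *ob/ob* 3 lies above control 3.

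At the entry step, *Cpt1b*-a (probe A_55_P2039210) read 9.29, 9.29, and 7.74 on control arrays 1, 2, and 3 (log2 signal). On *ob/ob* arrays 1, 2, and 3 it read 7.13, 7.23, and 6.94. Control 1 and control 2 were high, control 3 lay between them and the *ob/ob* arrays, and the gap between control 3 and the highest *ob/ob* array was 0.52. The group means were 8.77 ± 0.89 (SD, n = 3) and 7.10 ± 0.14 (SD, n = 3), which is 3.19-fold lower in *ob/ob* iBAT. This was a log2 fold change of −1.67 (SE 0.50, 95% confidence interval −2.89 to −0.45), at an unadjusted limma p of 0.0148 and an exact 2-sided permutation p of 0.10, the smallest that 3 against 3 arrays can give. One scan held control 1, control 3, and *ob/ob* 1, and the difference inside that scan was −1.38. The difference stayed negative under all 18 other settings run on this probe, from −2.19 to −1.34. Among these, other detection filters, the methods' t-test, a trend with robust estimation, and the replicate number as a block cannot change the estimate (−1.67). They are no separate support for its sign. The unadjusted limma p was 0.0563 without control 1 (−1.41) and 0.0600 without control 2 (−1.41). With the scan as a block the estimate was again −1.38, because each other array was alone in its scan. Without control 3 the difference was −2.19, and without *ob/ob* 3 it was −1.59.

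The other *Cpt1b* probe, *Cpt1b*-b (A_55_P1956882), read 10.85, 10.40, and 6.39 on the control arrays, against 4.78, 4.45, and 9.48 on the *ob/ob* arrays. Control 1, control 2, and *ob/ob* 3 were high, and the remaining arrays were low, so the groups overlapped. Its range over the 6 arrays, 6.40 log2 units, was at the 99.5th percentile of all tested probes, whose median range was 1.67. On average it was lower by a log2 fold change of −2.97 (SE 1.74, 95% confidence interval −7.18 to 1.23, limma p = 0.135, exact permutation p = 0.20). The probes of *Cpt1b* therefore gave the same sign, but *ob/ob* 3 was the lowest array by *Cpt1b*-a and the third highest by *Cpt1b*-b. The difference between the probes, a minus b, ran from −2.54 in *ob/ob* 3 to 2.78 in *ob/ob* 2, with no separation of the groups (exact permutation p = 0.60, adjusted p = 0.80 over the 3 genes with a tested pair). Leaving out 1 array gave −4.60 (without *ob/ob* 3) to −2.08 (without *ob/ob* 2). With the mean of both probes in place of single probes, *Cpt1b* no longer had an unadjusted p under 0.05.

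*Cpt1a*-a (A_55_P2057405), a probe of the liver isoform, read 6.71, 6.88, and 7.75 in the control group, against 7.09, 7.63, and 5.92 in the *ob/ob* group. The groups overlapped, with control 3 the highest array and *ob/ob* 3 the lowest. Its log2 fold change was −0.23 (SE 0.56, 95% confidence interval −1.58 to 1.11, limma p = 0.690, exact permutation p = 0.80). *Cpt1a*-b (A_51_P427674), spotted 10 times per array, ran the other way: control 3 was its lowest array (2.46) and *ob/ob* 3 its highest (6.36). Its remaining values were 4.69 (control 1), 3.98 (control 2), 3.12 (*ob/ob* 1), and 3.005 (*ob/ob* 2). Before normalization, the SD of the 10 spots was 0.0744 in *ob/ob* 3 and between 0.101 and 0.448 on the other arrays (log2 scale). The signal before normalization was 40.3 on *ob/ob* 3 and 43.6 on control 1. *ob/ob* 3 was therefore the highest array only after scaling between arrays, which the spots cannot speak to. *Cpt1a*-b was detected on 2 control arrays and 1 *ob/ob* array, and its log2 fold change was 0.45 (SE 1.06, 95% confidence interval −2.10 to 3.01, limma p = 0.684, exact permutation p = 0.80). Its sign turned to −0.65 without *ob/ob* 3 and to −0.17 without control 3, and that of *Cpt1a*-a to 0.25 and 0.087.

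*Cpt1c*-a (A_55_P2032750) varied least among the 11 probes, with a range of 0.891. The control arrays read 6.03, 5.96, and 6.29, and the *ob/ob* arrays 5.96, 6.31, and 5.42. Apart from *ob/ob* 3, the arrays lay close together in both groups. For this mainly neuronal isoform, the log2 fold change of −0.20 (SE 0.36, limma p = 0.607, exact permutation p = 0.60) had a 95% confidence interval from −1.07 to 0.68. The untested *Cpt1c*-b (A_52_P269942) stayed not well above background, with values of 2.80 to 3.03 in control iBAT and 2.23 to 3.13 in *ob/ob* iBAT.

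**Figure D2:**
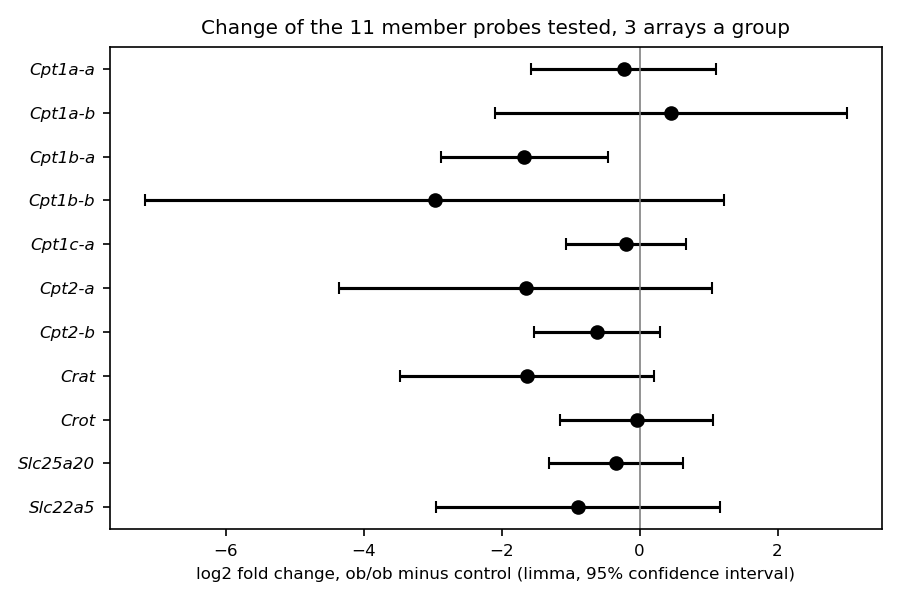
Log2 fold change, *ob/ob* minus control (x axis), of the 11 tested probes with the 95% confidence interval from limma, 3 arrays per group. The interval of *Cpt1b*-a, −2.89 to −0.45, is the only one of the 11 that does not include 0.

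At the inner membrane, the translocase probe *Slc25a20* (A_51_P344008) read 7.20, 7.35, and 8.08 in control iBAT, against 7.49, 7.36, and 6.74 in *ob/ob* iBAT. Control 3 was the highest array and *ob/ob* 3 the lowest, and the other 4 lay within the range of both groups. Its mean difference of −0.35 (SE 0.40, 95% confidence interval −1.32 to 0.62) was within the spread between arrays (limma p = 0.420, exact permutation p = 0.60). Without control 3 and *ob/ob* 3, it was 0.15.

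*Cpt2*-a (A_55_P2033650), the brighter probe of the inner membrane transferase, read 12.27, 11.66, and 8.55 in control iBAT, against 8.62, 8.30, and 10.61 in *ob/ob* iBAT. Control 1, control 2, and *ob/ob* 3 were high, and control 3 fell between *ob/ob* 1 and *ob/ob* 2. The log2 fold change was −1.65 (SE 1.12, 95% confidence interval −4.36 to 1.06, limma p = 0.188, exact permutation p = 0.30), and the difference inside the shared scan was −1.80. Leaving out 1 array moved it both ways, from −2.79 without control 3 (at an unadjusted limma p of 0.0140) to −0.93 without control 1 (at a p of 0.462). *Cpt2*-b (A_55_P2074174) read 6.39, 6.68, and 7.22 in control iBAT, against 6.23, 6.44, and 5.78 in *ob/ob* iBAT. Its groups overlapped by a single pair of arrays, control 1 below *ob/ob* 2. Its log2 fold change was −0.62 (SE 0.38, 95% confidence interval −1.53 to 0.30, limma p = 0.152, exact permutation p = 0.20). Both *Cpt2* probes were lower on average in *ob/ob* iBAT, although control 3 was the highest array for *Cpt2*-b and among the lowest for *Cpt2*-a. The probe difference, a minus b, changed by −1.04 between groups (exact permutation p = 0.70, adjusted p = 0.80).

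*Crat* (A_55_P1983314), the transferase for short acyl groups, read 6.61, 6.51, and 4.49 in control iBAT, against 3.71, 3.63, and 5.35 in *ob/ob* iBAT. It was detected on 3 control arrays and on 1 *ob/ob* array, *ob/ob* 3 having the highest value of its group and overlapping control 3. The mean difference was −1.64 (SE 0.76, 95% confidence interval −3.48 to 0.20, limma p = 0.0729, exact permutation p = 0.20). Its call depended on the scaling. With each array scaled to its 75th percentile, the *ob/ob* arrays (4.14, 4.05, and 4.11) all lay below the controls (6.56, 6.64, and 4.88), at a log2 fold change of −1.92 and an unadjusted limma p of 0.0191. Under that scaling 2 of the 11 probes were lower at an unadjusted p under 0.05, *Crat* and *Cpt1b*-a, against 0.88% of all probes, and the median of all probes moved from −0.073 to −0.32. With normexp background correction the *Crat* difference was −0.52, at a limma p of 0.135.

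*Crot* (A_51_P489153), the peroxisomal transferase, read 7.01, 6.98, and 6.42 in control iBAT, against 6.20, 6.52, and 7.56 in *ob/ob* iBAT. The group means were 6.80 ± 0.33 (SD, n = 3) and 6.76 ± 0.71 (SD, n = 3), and the groups overlapped. Their difference was −0.05 (SE 0.46, 95% confidence interval −1.16 to 1.07, limma p = 0.925, exact permutation p = 1), and its sign changed with the processing, to 0.032 with 75th percentile scaling.

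For carnitine uptake, *Slc22a5* (A_51_P165060) read 6.97, 6.27, and 4.99 in control iBAT, against 4.35, 4.37, and 6.83 in *ob/ob* iBAT. *ob/ob* 3 reached the level of control 1 and control 2, while control 3 was nearer to *ob/ob* 1 and *ob/ob* 2. The log2 fold change was −0.90 (SE 0.85, 95% confidence interval −2.95 to 1.16, limma p = 0.332, exact permutation p = 0.30). It was −1.72 without *ob/ob* 3, at an unadjusted limma p of 0.0373, and −1.63 inside the shared scan. It was smaller, at −0.45, −0.48, and −0.49, without control 1, *ob/ob* 1, and *ob/ob* 2, and −0.34 with normexp.

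Across the shuttle, the order of the arrays followed the genotype labels in 1 of the 11 probes, *Cpt1b*-a. In 6 of the 11 probes (*Cpt1a*-b, *Cpt1b*-b, *Cpt2*-a, *Crat*, *Crot*, and *Slc22a5*), control 1, control 2, and *ob/ob* 3 all lay above control 3, *ob/ob* 1, and *ob/ob* 2. This order was chosen after the values were seen and held for 25.9% of all tested probes. With 75th percentile scaling *Crat* lost it, with 4.11 on *ob/ob* 3 and 4.88 on control 3, and the other probes of this order kept it. In the other 5 probes (*Cpt1a*-a, *Cpt1b*-a, *Cpt1c*-a, *Cpt2*-b, and *Slc25a20*), *ob/ob* 3 was the lowest array, a share close to that of all tested probes (43.1%). Each profile was next centered on its own mean and compared by the root mean square (RMS) difference over the 6 arrays. *Cpt2*-b and *Slc25a20* were closest (0.181), followed by *Cpt1c*-a with *Slc25a20* (0.238) and with *Cpt2*-b (0.275). Among the probes of wider range, *Cpt2*-a and *Crat* (0.504) and *Crat* and *Slc22a5* (0.511) were closest. The paired probes of a gene were farther apart than these, at 1.90 for *Cpt1a*, 2.04 for *Cpt1b*, and 1.75 for *Cpt2*.

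**Figure D3:**
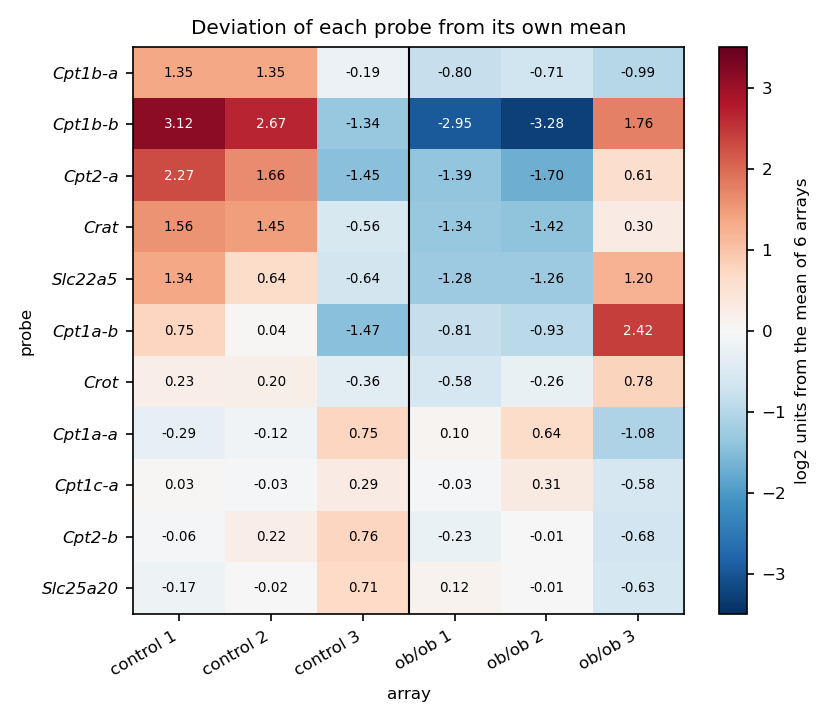
Deviation of each tested probe (rows) from its own mean over the 6 arrays (columns), in log2 units, with red above and blue below the mean. The 6 rows from *Cpt1b*-b to *Crot* have control 1, control 2, and *ob/ob* 3 above the other arrays, and *Cpt1b*-a and the 4 bottom rows have *ob/ob* 3 lowest.

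With control 3 left out, 4 of the 11 probes were lower at an unadjusted p under 0.05 (*Cpt1b*-a, *Cpt1b*-b, *Cpt2*-a, and *Crat*), against 3.39% of all probes. With *ob/ob* 3 left out there were also 4 (*Cpt1b*-a, *Cpt1b*-b, *Crat*, and *Slc22a5*), against 3.66%. With both arrays left out, 7 were lower at an unadjusted p under 0.05, against 25.5% of all probes. In that fit 6 of them, *Cpt1a*-b, both *Cpt1b* probes, *Cpt2*-a, *Crat*, and *Slc22a5*, had an adjusted limma p under 0.05, against 23% of all probes called lower. The log2 fold changes were then −6.01 for *Cpt1b*-b, −3.51 for *Cpt2*-a, −2.89 for *Crat*, −2.26 for *Slc22a5*, −2.11 for *Cpt1b*-a (adjusted p = 1.73e-04), and −1.27 for *Cpt1a*-b. *Crot*, the seventh probe lower at an unadjusted p, went from −0.05 to −0.64 (limma adjusted p = 0.0572). *Cpt2*-b went from −0.62 to −0.20, *Slc25a20* from −0.35 to 0.15, *Cpt1c*-a from −0.20 to 0.14, and *Cpt1a*-a from −0.23 to 0.57. These are differences between 2 pairs of arrays, chosen after the data were seen by leaving out the arrays unlike their groups, so their p values overstate the evidence. Between the arrays left out, *ob/ob* 3 minus control 3, the difference was 3.10 for *Cpt1b*-b, 2.07 for *Cpt2*-a, 0.86 for *Crat*, and 1.84 for *Slc22a5*, opposite in sign. For *Crat* this depended on the scaling, since with 75th percentile scaling *ob/ob* 3 (4.11) lay below control 3 (4.88). For *Cpt1b*-a it was −0.80, the same sign.

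**Figure D4:**
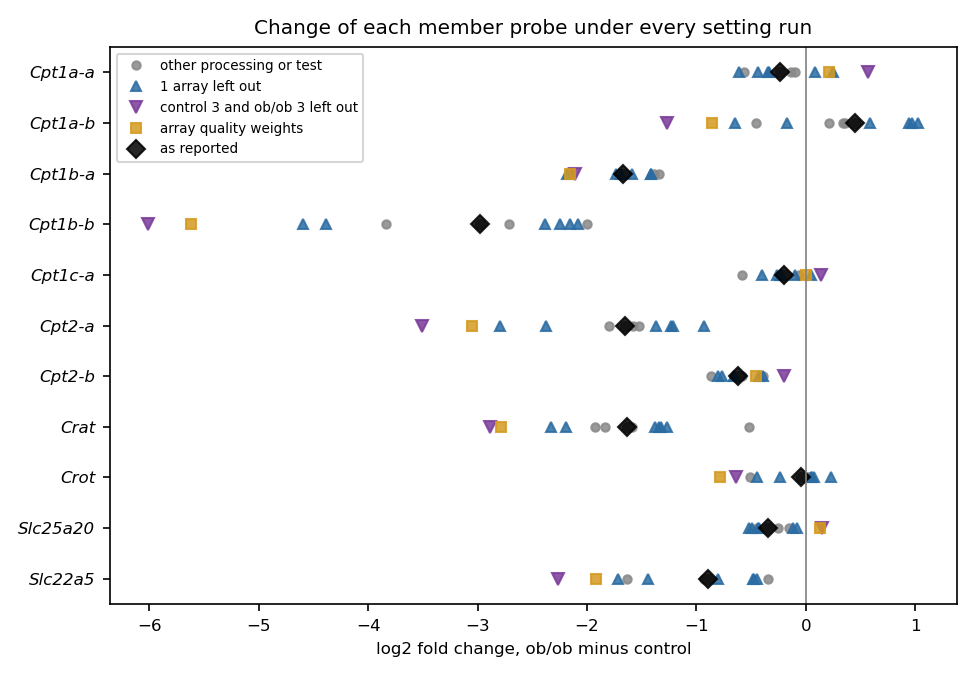
Log2 fold change, *ob/ob* minus control (x axis), of each tested probe under every setting, with black diamonds for the reported values, blue triangles for 1 array left out, purple triangles for control 3 and *ob/ob* 3 left out, and yellow squares for array quality weights. *Cpt1b*-a stayed between −2.19 and −1.34, whereas *Cpt1b*-b reached −6.01.

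The genes on the array whose profiles were most like each member were taken by the same RMS difference, among 15883 genes detected on all 6 arrays (15884 for *Crat*). For *Cpt1b*, by *Cpt1b*-a, they were *Tmem79* (0.105), *Farp1* (0.162), and *Ptms* (0.164), with log2 fold changes of −1.55, −1.94, and −1.39. For *Cpt2*, by *Cpt2*-a, they were *Gpd1* (0.0861), the glycerol-3-phosphate dehydrogenase of the cytosol, *Ndufb10* (0.0893), a subunit of respiratory complex I, and *Atp5e* (0.121), a subunit of ATP synthase. For *Crat* they were *Il11ra1* (0.131), *Dgat1* (0.140), an enzyme of triglyceride synthesis, and *Zc3h11a* (0.172). *Slc22a5* was closest to *Enpep* (0.113), *Sc5d* (0.151), and *Ccdc117* (0.155), and *Crot* to *Pbx2* (0.0559), *Sec23ip* (0.0758), and *St3gal1* (0.0882). *Slc25a20* was closest to *Mxra7* (0.0555), *2810025M15Rik* (0.0636), and *Plk4* (0.0707). The nearest genes of *Cpt1a* were *Klk5* (0.0455), *Arpp21* (0.0516), and the olfactory receptor gene *Olfr1263* (0.0529), and those of *Cpt1c* were *Slfn14* (0.0341), *1700120E14Rik* (0.0352), and the olfactory receptor gene *Olfr1009* (0.0359). A small RMS difference is easier to reach for a probe of narrow range, and the values are descriptions without a test.

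Genes around the shuttle were read by their brighter probe, with 1.69% of all genes lower and 2.04% higher at an unadjusted limma p under 0.05, and with 4.22% lower and 3.78% higher without overlap. All adjusted p values of these genes rounded to 1. Among 7 genes of carnitine synthesis and transport (*Slc22a4*, *Slc22a21*, *Slc22a16*, *Slc25a29*, *Bbox1*, *Tmlhe*, and *Aldh9a1*), 0 were called in either direction. Their median log2 fold change was −0.13. *Tmlhe*, the first enzyme of carnitine synthesis, gave −0.50 (SE 0.78), and *Bbox1*, the last, −0.05 (SE 0.53).

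Among 9 genes that set malonyl-CoA, the inhibitor of CPT1, 1 was lower and 0 were higher at an unadjusted p under 0.05, with a median of −0.13. The lower gene was *Acacb*, the mitochondrial acetyl-CoA carboxylase that makes malonyl-CoA next to CPT1. *Acacb* read 11.66, 12.13, and 8.51 in control iBAT, against 5.98, 6.60, and 9.04 in *ob/ob* iBAT, with a mean difference of −3.56 (SE 1.20) at an unadjusted limma p of 0.0238. Its groups overlapped, since *ob/ob* 3 lay above control 3. *Mlycd*, which degrades malonyl-CoA, gave −0.99 (SE 1.28). The AMP-activated kinase subunits *Prkab1* (−1.27, lower) and *Prkag2* (0.53, higher) were without overlap but at limma p values of 0.0662 and 0.123.

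Among 7 transcriptional regulators of the shuttle genes, 2 were lower and 0 were higher at an unadjusted p under 0.05, both without overlap, with a median of −0.59. These were the coactivators *Ppargc1b*, at −3.75 (SE 0.70), and *Ppargc1a*, at −2.91 (SE 0.87), with unadjusted limma p values of 0.00152 and 0.0144. *Ppara*, the nuclear receptor that acts on many fatty acid oxidation genes, gave −0.57 (SE 0.48). Among 14 genes that make or use acyl-CoA on either side of the shuttle, 0 were called in either direction and the median was 0.00. *Acsl1*, an acyl-CoA synthetase that supplies CPT1, gave −0.00041 (SE 1.66), and *Acadvl*, the first dehydrogenase for very long chains, −1.64 (SE 1.21).

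**Figure D5:**
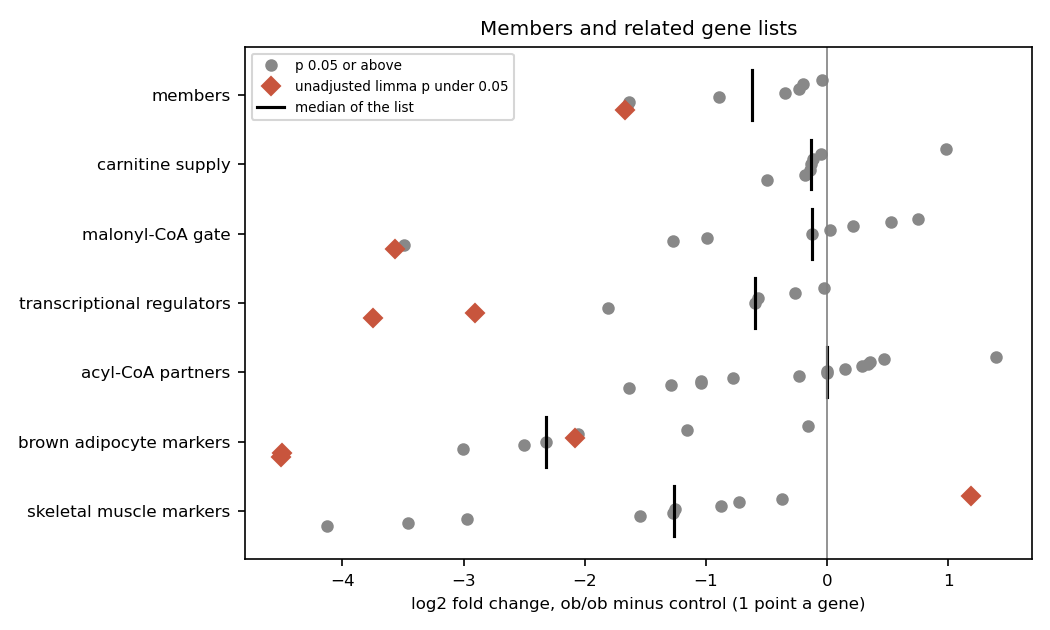
Log2 fold change, *ob/ob* minus control (x axis), of each gene by its brighter probe, for the shuttle genes and for the lists around them (rows). Red diamonds mark an unadjusted limma p under 0.05 and vertical bars the median of a list, which is −0.62 for the shuttle genes and −2.32 for the brown adipocyte markers.

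Markers of brown adipocytes and of skeletal muscle were read on the same arrays. Of 9 brown adipocyte markers, 3 were lower at an unadjusted p under 0.05 (*Adrb3*, *Elovl3*, and *Zic1*), 0 were higher, and the median was −2.32. The log2 of their summed signal was 12.8 to 16.6 in control iBAT and 12.1 to 13.6 in *ob/ob* iBAT, with 7 of the 9 detected on all 6 arrays, *Prdm16* on 4, and *Elovl3* on 3. *Elovl3* read 9.20, 9.35, and 5.48 in control iBAT, against 3.30, 3.92, and 3.29 in *ob/ob* iBAT. If those 3 arrays were the controls, it passed the detection filter only through the group where it was high. Of 10 skeletal muscle markers, 8 of them detected on all 6 arrays, 0 were lower, 1 was higher (*Mylpf*), and the median was −1.26. Their summed signal, on the log2 scale, was 15.4, 15.9, and 12.2 in control iBAT, against 9.55, 9.49, and 17.1 in *ob/ob* iBAT. The muscle sum was thus highest on *ob/ob* 3, control 1, and control 2, with *Mylpf*, which was lowest on control 1 (4.14) and control 2 (3.68), an exception. These were the arrays on which *Cpt1a*-b, *Cpt1b*-b, *Cpt2*-a, *Crat* (with quantile normalization), *Crot*, and *Slc22a5* were high. The same arrays were highest by the brown adipocyte sum, at 16.6, 15.9, and 12.8 in control iBAT, against 12.2, 12.1, and 13.6 in *ob/ob* iBAT. They were also highest by the sums of the malonyl-CoA genes, the acyl-CoA genes, and the white adipocyte markers. The sums of carnitine supply, regulators, macrophage markers, and endothelial markers did not have this order. The array with the highest muscle sum, *ob/ob* 3, was the lowest array for *Cpt1b*-a, and also for 43.1% of all tested probes. The part of muscle or brown adipocyte RNA in any of these differences was not tested.

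Markers of other cell types were read in the same way. Of 7 macrophage markers with a named probe, 0 were called at an unadjusted p under 0.05, 5 had a positive log2 fold change, and 2, *Cd14* and *Fcgr1*, were higher without overlap. Their median was 0.53. The summed log2 signals were 12.1 to 13.9 in control iBAT and 11.7 to 12.3 in *ob/ob* iBAT. *Itgam*, the marker of highest mean signal, gave −1.43 (SE 0.72). Of 6 endothelial markers, 0 were called, the median was −0.85, and the sums were 12.6 to 13.3 and 11.8 to 12.6. Of 6 tested white adipocyte markers, 1 was lower (*Retn*) and 0 were higher at an unadjusted p under 0.05, *Lep* was higher without overlap, and the median was −0.18. Their part in the values of the shuttle genes was not tested.

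Without control 3 and *ob/ob* 3, the medians of these lists moved too. The median was 0.71 for carnitine supply, −0.92 for the malonyl-CoA genes, −1.03 for the regulators, and −1.48 for the acyl-CoA genes. It was −3.91 for the brown adipocyte markers, −3.02 for the skeletal muscle markers, −1.80 for the endothelial markers, 0.26 for the macrophage markers, and 0.13 for the white adipocyte markers. *Acacb* gave −5.61, *Ppargc1a* −4.35, *Ppargc1b* −4.87, *Adrb3* −6.06, *Elovl3* −5.67, *Zic1* −2.11, *Retn* −2.85, and *Mylpf* 1.64, all with the sign they had on 6 arrays. These genes were named because they were called on those same arrays, so the shared sign is no separate support. Some uncalled genes of these lists changed sign, among them *Acadm*, *Mrc1*, *Ppard*, and *Rxra*.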

How the data were processed

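Per the labels, the authors read the array images with Agilent Feature Extraction (version 11.0.1.1). They deposited, for each array, the spot intensity corrected for background and not normalized between arrays, and a table of log2 values, quantile normalized in GeneSpring, which correlated at 0.987 to 0.999 with the scanner values. Arrays give no counts, and 3 arrays per group limit the precision.

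Spots with an outlier flag were left out, spots of a probe averaged on the log2 scale, and arrays quantile normalized. Probes detected (well above background on at least 50% of their spots) on at least 3 of 6 arrays were tested with limma (version 3.58.1, R 4.3.3) with Benjamini-Hochberg adjustment over all 35448 of them. P values measure the spread between these samples. Names came from RefSeq (94.9% of 28684 probes with a RefSeq accession matched). *Crat* overlaps *Dolpp1*, and *Cpt1a* and *Cpt1b* overlap noncoding genes; probe positions were not compared with them.

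The 8 genes and all lists were chosen with earlier results of these data known. Every probe of the 8 genes, every marker or pathway list, and the 3 nearest profiles of each gene were named. The code was tested on simulated data, and Python (version 3.11.15) made tables and figures. The alternatives were 75th percentile scaling, normexp (offset 50), the authors' values, other detection filters, the methods' t-test, a trend with robust estimation, array weights, replicate number or scan as a block, gene means, and leaving out each array.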

Additional observations from a re-analysis of the deposited data

How the results depend on the processing

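The median log2 fold change of the 8 genes stayed negative under every setting, from −0.30 with normexp to −1.37 without control 3 and *ob/ob* 3, and from −1.02 to −0.48 with 1 array left out. The other detection filters, the methods' t-test, the trend fit, and the replicate block leave the fold change of each probe as it was. Those settings are no separate support for the sign. The count of probes lower at an unadjusted p under 0.05 was 1 (1.52% of all probes) and became 2 with 75th percentile scaling (0.88%). It became 8 with array quality weights (48.1% of all probes). Without control 3 and *ob/ob* 3, a setting added after the data were seen, it was 7 (25.5%). With genes in place of probes it was 0 of 8 (1.45% of all genes), and with 1 array left out it was 0 to 4. It was 0 without control 1 (0.79% of all probes) or control 2 (0.49%), and 4 without control 3 (3.39%) or *ob/ob* 3 (3.66%). The count past an adjusted p became 10 with array quality weights (93.6% of all probes) and 6 without both arrays (45.9%, either direction). The count higher at an unadjusted p became 2 with the weights (45.6%). The methods' t-test gave 1 lower (*Cpt1b*-a, against 2.06% of all probes) and 0 higher (2.2% of all probes) at an unadjusted p under 0.05. After Benjamini-Hochberg adjustment that test gave 0 (0% of all probes). The weighted fit called 93.6% of all probes, so its p values carry little weight here. With the scan as a block, the estimate rested on control 1, control 3, and *ob/ob* 1, because each other array was alone in its scan. It was −3.84 for *Cpt1b*-b and −1.38 for *Cpt1b*-a, the same as the differences inside that scan.

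The sign turned for *Crot* with 75th percentile scaling (0.032) and normexp (0.011), and it ranged from −0.45 to 0.23 with 1 array left out. *Cpt1a*-a became 0.22 with the weights and 0.57 without both arrays, and ranged from −0.61 to 0.25 with 1 array left out. *Cpt1a*-b became −0.86 with the weights, −0.45 with the scan as a block, and −1.27 without both arrays, and ranged from −0.65 to 1.03 with 1 array left out. *Cpt1c*-a became 0.00076 with the weights and 0.14 without both arrays, and ranged from −0.40 to 0.044 with 1 array left out. *Slc25a20* became 0.13 with the weights and 0.15 without both arrays. The causes were not tested.

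Deviations of same-numbered arrays from their group means correlated at −0.781, −0.658, and −0.850. Control 3 and *ob/ob* 3, each unlike its group, enter every group mean. These values therefore cannot show whether the replicate numbers pair the samples. With the replicate number as a block, 1 probe (*Cpt1b*-a, at a limma p of 0.0365) was lower at an unadjusted p, against 0.62% of all probes. In that fit 0 were higher (0.39% of all probes), 0 passed an adjusted p (0% of all probes), and the median was −0.62. Low signal limits *Cpt1a*-b and *Crat*, which were detected on 3 and 4 arrays. It may also limit *Cpt1a*-a, *Cpt2*-b, and *Cpt1c*-a, although these were detected on all 6 arrays. Their signals on *ob/ob* 3 before normalization were 24.2, 21.0, and 15.0, beside 14.1 for *Crat*.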
